A study of Mus musculus with 3 samples.

Results

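Adrenomedullin and apelin signalling in the mouse retina was followed through 7 of the 24071 genes in the deposited tables. The genes are the peptide genes Adm and Apln, the apelin receptor gene Aplnr, the adrenomedullin receptor gene Calcrl, and Ramp1, Ramp2 and Ramp3, which encode the membrane partners of CALCRL. They were taken by name, but they were selected on measured values: the levels of Adm and Apln in Müller cells of these libraries were known when they were proposed. Those levels are therefore given as a description. The samples are 3 single-cell libraries of retinas at P26, with 1 library each from Tspan12 KO mice given F4L5.13, from Tspan12 KO mice and from WT mice. TSPAN12 is the tetraspanin partner of the Norrin receptor complex in retinal vessels, and F4L5.13 is an antibody that engages FZD4 and LRP5 in place of the ligand. Treated mice were injected into the peritoneum with F4L5.13, at P6, P9 and P12 with 10 mg/kg each time, after which the dose was 4 mg/kg at intervals of 3 days. The labels give the strain Tspan12tm1.2Hjug for all 3 libraries, WT included, and give no vehicle for the other libraries, no number of animals and no statement of how many retinas were pooled. Before loading, beads against CD73 and Annexin V were used to draw off photoreceptors and dying cells, so the share of a cell class is that of a depleted suspension.

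Adrenomedullin is a secreted peptide that widens vessels and is needed for the growth of blood and lymph vessels, and its gene is a textbook target of the transcription factors induced by low oxygen. It acts on CALCRL, a G protein-coupled receptor whose ligand preference is set by its partner: RAMP2 or RAMP3 makes an adrenomedullin receptor, and RAMP1 makes the receptor for calcitonin gene-related peptide (CGRP). Apelin is a second peptide ligand, acting on the receptor APLNR, and in the growing retinal vasculature Apln is known as a gene of endothelial tip cells and Aplnr as a gene of the endothelium behind them.

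With 1 library per group there was no replicate, so no test between groups was made, and every difference is one between single libraries. Values are deposited reads per gene and cell, summed over a class and divided by all reads of that class, on the usual CPM scale. Intervals are 95% intervals that cover counting error only, computed after dividing reads by 3.20, 2.87 and 2.77 in the treated, KO and WT libraries, because the values behaved as reads and not as single molecules. A gene passed the size call when its CPM ratio was at least 2 in either direction, the higher library held at least 30 of these molecule equivalents, and the interval bound nearest 1 lay beyond 1.5. The treated, KO and WT libraries held 9835, 10769 and 6092 barcodes with medians of 6588, 7351 and 14797 reads, and 8281, 9400 and 5785 cells were kept. The treated and KO libraries shared 31 barcodes, the treated and WT libraries 15, and the KO and WT libraries 17. Clusters were named from marker genes without using the 7 genes, and Müller-like, astrocyte-like, endothelial-like and other such classes are called Müller cells, astrocytes, endothelial cells and so on. Müller cells, the glia that span the retina, numbered 1318 in the treated, 1388 in the KO and 1695 in the WT library, with medians of 22761, 27038 and 19398 reads per cell. Endothelial cells numbered 37, 2 and 116, astrocytes 25, 29 and 53, microglia 22, 76 and 14, and mural cells, which wrap vessels, 6, 12 and 6. Reads of Tspan12 itself were present in Müller cells of every library, at 24.6, 29.3 and 43.8 CPM. The labels do not say where the deletion lies relative to the 3′ tags, so this is no check of genotype.

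Adm was high in Müller cells of the KO library. Müller cells of the treated library held 445 Adm reads, those of the KO library 5204 and those of the WT library 88. These were 13.2 (11.1 to 15.6), 132 (126 to 138) and 2.27 (1.55 to 3.21) CPM. The KO library was thus high, the treated library stood between, and no 2 of the 3 intervals overlapped. The ratio was 0.100 (0.0836 to 0.119) for treated over KO, 5.81 (3.93 to 8.82) for treated over WT and 58.0 (40.9 to 85.2) for KO over WT. Reads of Adm were found in 92 of 1318 treated Müller cells (6.98%), 620 of 1388 KO cells (44.7%) and 34 of 1695 WT cells (2.01%). At an even 10000 reads per cell, which left 1132, 1265 and 1655 cells, the shares were 4.42%, 37.5% and 1.15%. In bipolar cells, interneurons taken here as the background class for the peptides, the shares were 0.0876%, 0.892% and 0.111%, at medians of 13187, 11052 and 11422 reads per cell.

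Apln followed Adm in the KO library but not in the treated one. Müller cells held 316 Apln reads in the treated, 4634 in the KO and 417 in the WT library, or 9.36 (7.60 to 11.4), 117 (112 to 123) and 10.8 (9.11 to 12.6) CPM. Only the KO library stood apart: the intervals of the treated and WT libraries overlapped. The ratio was 0.0798 (0.0644 to 0.0978) for treated over KO, 0.870 (0.668 to 1.13) for treated over WT and 10.9 (9.22 to 12.97) for KO over WT. The shares of Müller cells with Apln reads were 8.42%, 60.3% and 9.85%, and 5.83%, 48.9% and 7.19% at even depth. In bipolar cells they were 0.131%, 0.836% and 0.0737%.

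**Figure D1:**
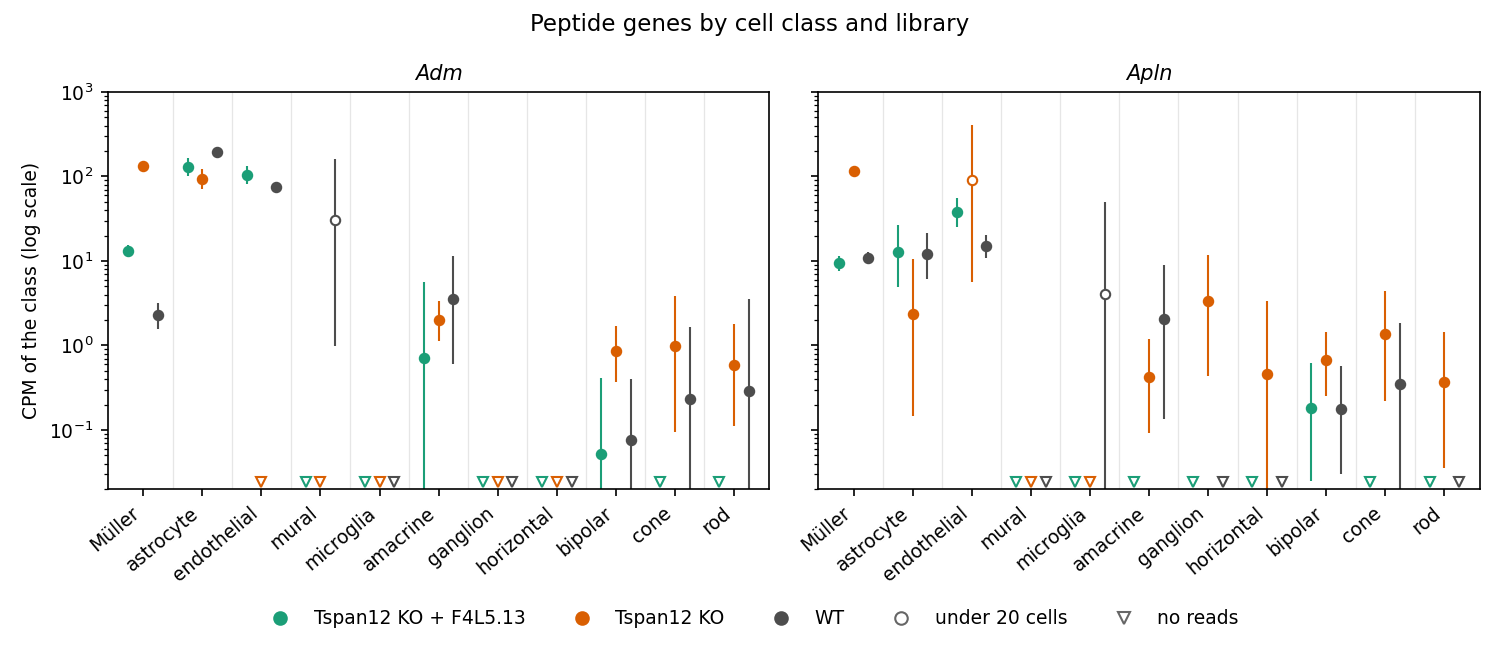
CPM of Adm (left) and Apln (right) on a log axis in 11 cell classes, for the treated (green), KO (orange) and WT (grey) libraries; bars are 95% counting intervals, open circles are classes under 20 cells and open triangles at the base are classes with no reads. Adm and Apln stand at 132 and 117 CPM in KO Müller cells, while astrocytes and endothelial cells hold Adm in the treated and WT libraries as well.

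Of the 7 members, 6 had enough reads in Müller cells for the size call. In treated over KO, 2 members (Adm and Apln) were lower and none was higher, where 1.65% of the 13738 genes measured were lower and 1.46% higher. In treated over WT, Adm was higher and no member was lower, where 0.872% of 13760 genes were higher and 0.298% lower. In KO over WT, 2 members (Adm and Apln) were higher and 1 (Ramp1) was lower, where 2.63% of 14085 genes were higher and 2.02% lower. Adm and Apln were chosen with these contrasts known, so nothing is read from these counts. The share of Müller cell reads that came from the 12 rod markers was 1.22%, 0.936% and 1.16% in the treated, KO and WT libraries, and that from the 12 cone markers 0.245%, 0.244% and 0.120%. All of these markers had reads. Without the Müller cells above the 75th percentile of photoreceptor marker reads, Adm stood at 0.0884 (0.0709 to 0.109) for treated over KO, 8.08 (4.83 to 14.3) for treated over WT and 91.5 (57.5 to 156) for KO over WT. The 12 endothelial markers made up 0.0806%, 0.0910% and 0.0882% of Müller reads, with 10, 9 and 12 of them detected, and their part in the result was not tested.

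**Figure D2:**
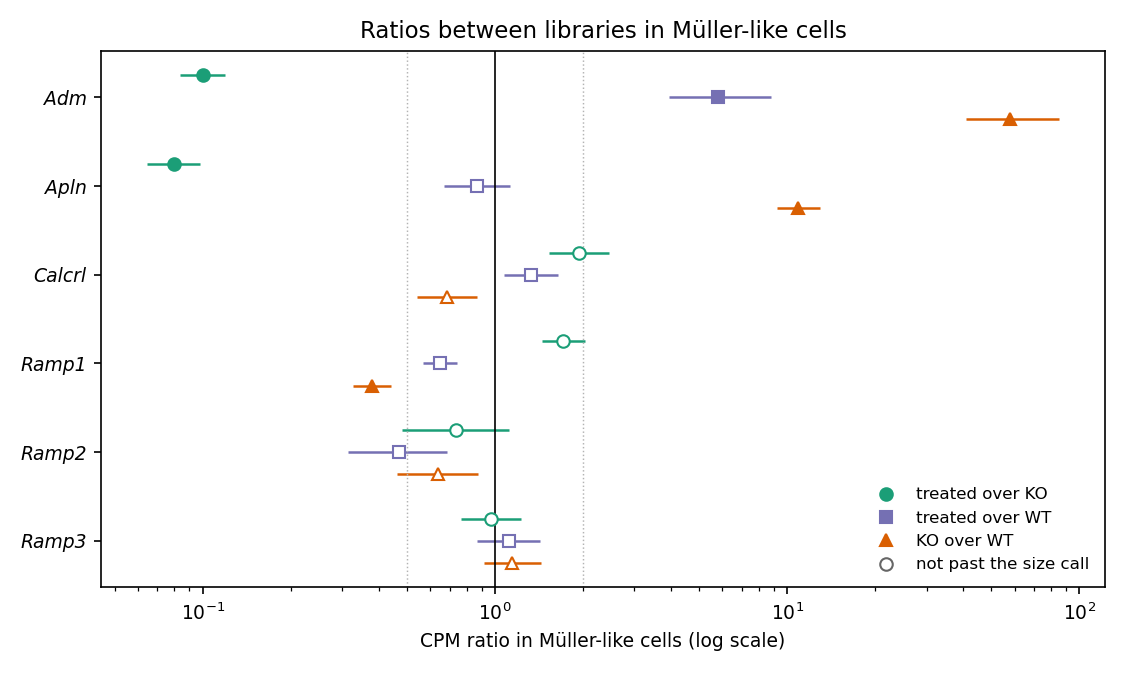
CPM ratios between libraries in Müller cells for 6 members, on a log axis: treated over KO (green circles), treated over WT (purple squares) and KO over WT (orange triangles), with 95% counting intervals; filled symbols passed the size call and dotted lines mark a ratio of 2 either way. Adm lies at 0.100 and Apln at 0.0798 for treated over KO, against 58.0 and 10.9 for KO over WT, and Ramp3 stays within 0.971 and 1.15.

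The promoters of these peptide genes were read for the core letters of the binding site of the low-oxygen factors, ACGTG or GCGTG on either strand. The 250 bases before the start site are shown for Adm, which holds matches, and for Apln, which holds none, since both genes were high in the same KO cells. They are from RefSeq on GRCm38.p6 at chr7:110627407-110627656 (plus strand) for Adm and chrX:48034854-48035103 (minus strand) for Apln, written 5′ to 3′ on the strand of the gene, with motif matches in capitals.
Adm: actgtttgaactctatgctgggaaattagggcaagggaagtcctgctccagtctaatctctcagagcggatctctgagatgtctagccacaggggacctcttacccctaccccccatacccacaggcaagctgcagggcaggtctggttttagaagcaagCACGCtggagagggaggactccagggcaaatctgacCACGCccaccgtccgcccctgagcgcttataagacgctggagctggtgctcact
Apln: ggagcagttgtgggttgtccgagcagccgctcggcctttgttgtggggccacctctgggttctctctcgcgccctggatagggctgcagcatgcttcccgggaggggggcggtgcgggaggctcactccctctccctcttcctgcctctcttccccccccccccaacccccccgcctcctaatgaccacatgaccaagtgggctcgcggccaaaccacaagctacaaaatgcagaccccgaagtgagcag
The Adm window holds GCGTG on the opposite strand at positions -90 to -86 and -54 to -50 from the start site. Among 32851 promoters of the same length, 38.6% hold 1 match or more and 16.7% hold 2 or more, so matches of this number are common. Of the other members with a promoter in the table, Ramp3 holds 2 matches, and Calcrl and Ramp1 hold none. The Adm gene lies on chromosome 7 at 110627661 to 110629820 and is overlapped on the other strand by the annotated antisense gene Gm28863. No source used here says whether counting used strand, so reads of the pair cannot be told apart. The Apln gene, on chromosome X at 48025146 to 48034853, overlaps no other annotated gene in GENCODE M21.

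The higher level of both peptides in KO Müller cells was seen across Müller clusters. The Müller class was made of 5 clusters, which the libraries filled unequally: cluster 2 held 604 treated, 40 KO and 1259 WT cells, and cluster 4 held 128, 799 and 43. Cluster 4 was led, in order, by Ndufa4l2, Hsd17b2, Ifit1, Nupr1, Atf3 and Ifit3. Of these, Ndufa4l2 is itself induced by low oxygen, Atf3 is a stress gene, and Ifit1 and Ifit3 are interferon-induced genes. Clusters 5 (317, 327 and 323 cells) and 18 (131, 161 and 67 cells) were filled more evenly, and cluster 25 was shallow, with medians of 2378 and 2778 reads in 138 treated and 61 KO cells. Adm in cluster 2 stood at 6.74 CPM in treated, 83.5 in KO and 1.63 in WT cells. In cluster 4 it stood at 22.0, 175.6 and 2.24 CPM, the last from 2 reads. In cluster 5 it stood at 19.2, 104 and 4.16 CPM. In each of clusters 2, 4, 5 and 18 the KO cells were the highest for Adm and for Apln. Apln in clusters 2, 4, 5 and 18 lay between 8.93 and 10.6 CPM in treated, between 81.3 and 139.6 CPM in KO and between 6.87 and 19.0 CPM in WT cells. Treated cells were above WT cells for Adm in these 4 clusters too, with intervals that did not overlap in clusters 2, 5 and 18. In cluster 25 Apln was at 117 CPM (51.6 to 227) in KO cells with 0 reads in treated cells, and Adm had 2 reads in treated and 1 in KO cells.

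**Figure D3:**
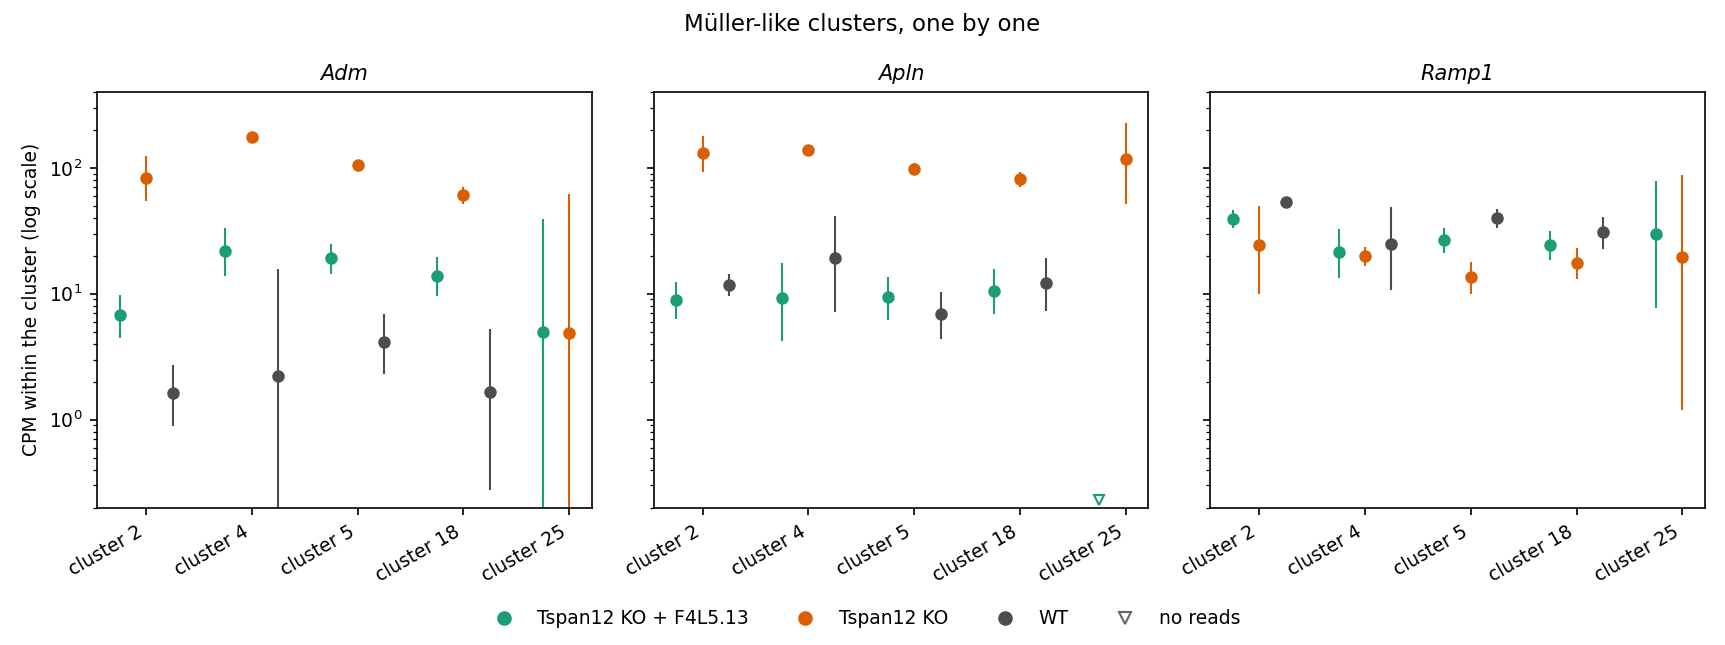
CPM of Adm, Apln and Ramp1 on a log axis within each of the 5 Müller clusters, for treated (green), KO (orange) and WT (grey) cells, with 95% counting intervals; the open triangle is a group with no reads, and WT is not drawn for cluster 25, where it has 3 cells. KO cells are highest for Adm and Apln in clusters 2, 4, 5 and 18, at 60.4 to 175.6 CPM for Adm.

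Within KO Müller cells many cells had reads of Adm or Apln, but the reads were uneven among them. The 81 cells with the most Adm reads, of 620 that had any, held 50% of them, and for Apln it took 180 of 837 cells. The most in 1 cell was 116 Adm reads and 37 Apln reads. The median level in cells with reads was 149.5 CPM for Adm and 144.7 CPM for Apln. For Adm the same share lay in 15 of 92 cells in the treated library and in 8 of 34 in the WT library, so the low totals there rest on few cells. Relative to the cells with reads, 81 of 620 is the smallest part, so Adm reads were not more evenly spread in KO cells. Leaving out the 5 cells with the most Adm reads in each library gave 0.0844 (0.0688 to 0.103) for treated over KO, 7.35 (4.51 to 12.6) for treated over WT and 87.1 (55.9 to 144) for KO over WT.

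Adm and Apln were often found in the same Müller cells of the KO library, and seldom in the other libraries. Both had reads in 19 of 1318 treated cells (1.44%), 440 of 1388 KO cells (31.7%) and 12 of 1695 WT cells (0.708%). At an even 10000 reads, Apln was found in 56.4% of the KO cells with Adm and in 44.4% of those without it. The same pair of shares was 10% and 5.64% in treated cells and 21.1% and 7.03% in WT cells. Only 50 treated and 19 WT cells had Adm there, of which 5 and 4 had Apln. In every library the share was higher in cells with Adm, but cells of 1 library share their preparation and were not tested.

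**Figure D4:**
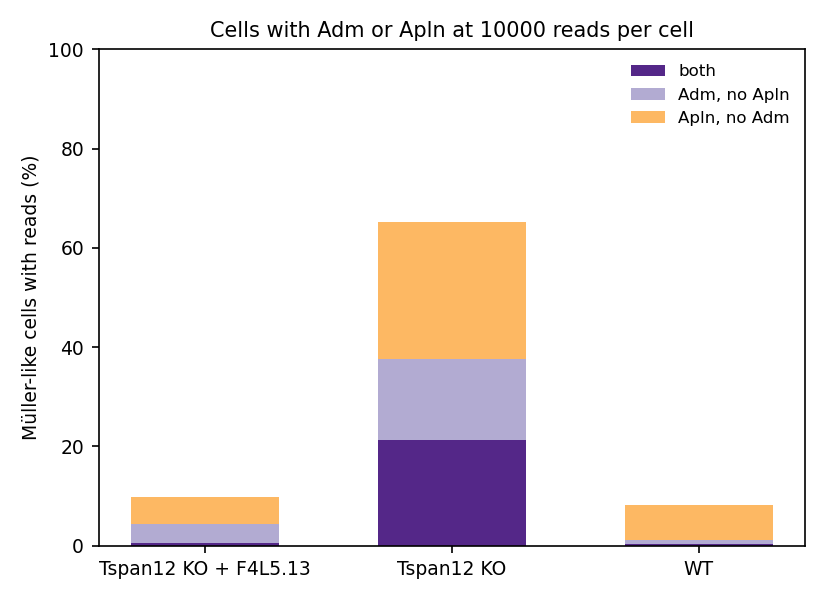
Percent of Müller cells with reads of both peptides (dark), of Adm without Apln (pale purple) and of Apln without Adm (orange) after each cell was brought to 10000 reads, for the treated, KO and WT libraries. KO cells with both made up 21.2%, against 0.442% in the treated and 0.242% in the WT library.

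Müller cells were not the main holders of Adm in the WT library. Among named cells, Müller cells held 49.8% of all Adm reads in the treated, 95.6% in the KO and 7.30% in the WT library, while WT astrocytes held 42.6% and WT endothelial cells 48.8%. Astrocytes, the glia of the nerve fibre layer on which the surface vessels grow, had Adm at 130.1 (101 to 165) CPM in treated, 93.9 (70.8 to 122) in KO and 195 (168 to 225) in WT cells. Their order was the reverse of that in Müller cells, with WT highest and KO lowest, on 25, 29 and 53 cells. The treated and KO intervals overlapped. Reads were found in 14 of 25, 8 of 29 and 29 of 53 astrocytes. Of the KO reads, 93.0% lay in 5 cells, and without the 5 highest cells of each library the levels were 61.4, 8.83 and 119 CPM, so the KO value rests on few cells. Apln in astrocytes was low, at 12.6 (4.90 to 26.7) CPM in treated, 2.38 (0.146 to 10.6) in KO and 12.1 (6.17 to 21.4) in WT cells, with overlapping intervals. For Apln, Müller cells held 74.0%, 98.8% and 71.9% of the named reads.

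**Figure D5:**
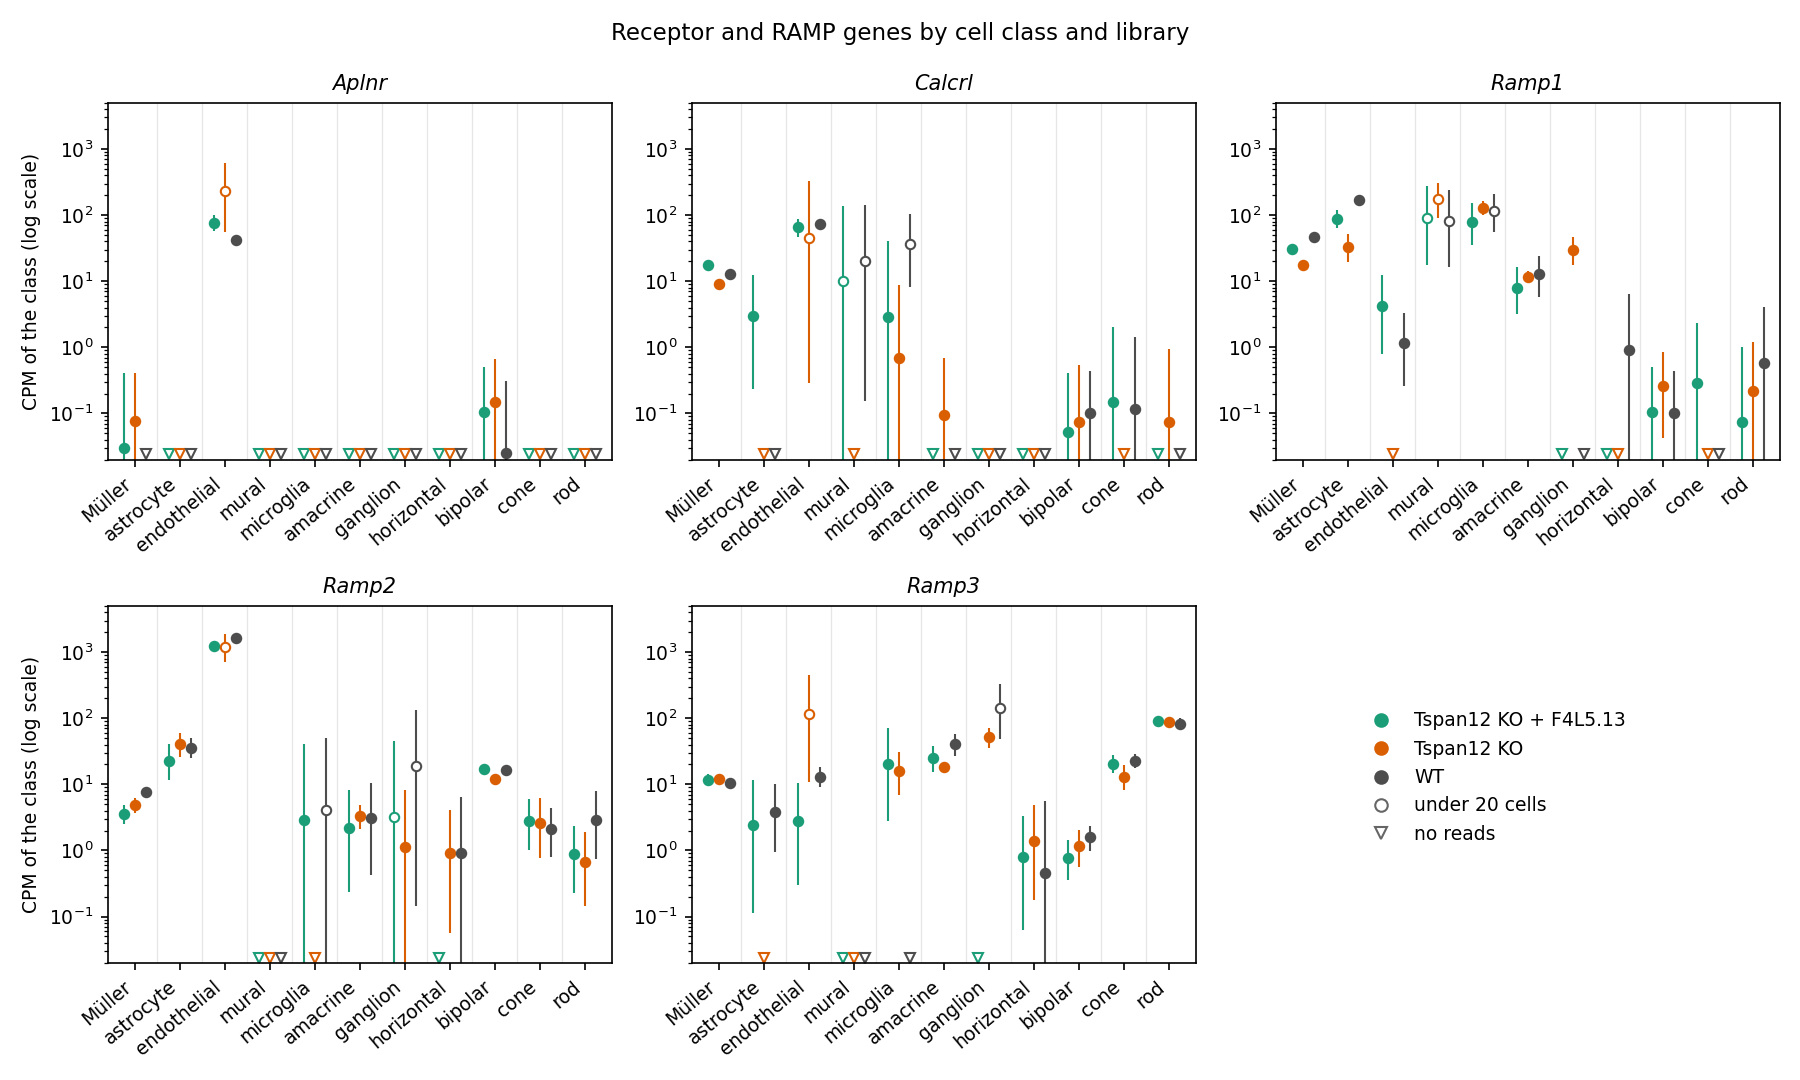
CPM of the receptor genes Aplnr and Calcrl and of Ramp1, Ramp2 and Ramp3 on a log axis in 11 cell classes, for the treated (green), KO (orange) and WT (grey) libraries, with 95% counting intervals; open circles are classes under 20 cells and open triangles are classes with no reads. Aplnr and Ramp2 stand in endothelial cells, where the KO library has 2 cells, Ramp1 in Müller cells, astrocytes, mural cells and microglia, and Ramp3 in rods.

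Aplnr, the only receptor for apelin among the members, was an endothelial gene in these libraries. Endothelial cells held 97.1% of the named Aplnr reads in the treated, 58.8% in the KO and 99.7% in the WT library, from 37, 2 and 116 cells. Müller cells, which held Apln, had 1, 3 and 0 reads of Aplnr. In endothelial cells Aplnr had 167 reads in treated cells (77.2 CPM, 57.7 to 101) and 322 in WT cells (41.5 CPM, 34.3 to 49.7), a ratio of 1.86 (1.32 to 2.60) that did not pass the size call. Without the 5 highest cells of each library it was 1.52 (0.950 to 2.35). Reads were found in 26 of 37 treated and 60 of 116 WT cells, or 41.2% and 22.7% at even depth. Over all kept cells Aplnr stood at 1.58 (1.19 to 2.07) CPM in the treated, 0.145 (0.0527 to 0.316) in the KO and 2.98 (2.46 to 3.57) in the WT library. Such a sum depends on both the number of endothelial cells and the Aplnr level in them. Within endothelial cells the treated level was not below the WT level, and the 2 KO cells gave 229 CPM (55.0 to 624). The part of each in the sums was not tested.

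The KO library had 2 endothelial cells, so its receptor levels rest on those cells alone. The deeper cell, with 37325 reads, had reads of all 12 endothelial markers and of 9 of the 11 mural markers, and held 10 reads of Aplnr, 4 of Apln, 42 of Ramp2, 5 of Ramp3 and 2 of Calcrl. The other cell, with 6352 reads, had 9 endothelial and no mural markers and held 10 reads of Ramp2 and none of the other members. Neither had Adm reads, but the limit that a count of 0 allows (3 molecule equivalents) is 197 CPM for these cells, which is above the levels in the treated and WT libraries.

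Endothelial cells of the treated and WT libraries held the adrenomedullin receptor pair and also the peptide. Ramp2 had 2672 reads in treated and 12645 in WT cells, or 1235 (1152 to 1321) and 1629 (1582 to 1677) CPM, and was found in 37 of 37 and 115 of 116 cells. Calcrl had 65.2 (47.3 to 87.5) and 74.3 (64.6 to 85.1) CPM, in 32 of 37 and 100 of 116 cells, with overlapping intervals and a ratio of 0.877 (0.618 to 1.22). Of the endothelial cells with Calcrl, 32 of 32 in treated and 99 of 100 in WT also had Ramp2. So did 100% of those without Calcrl in both libraries, so no link between the genes is read from this. Adm itself stood at 105 (82.3 to 133) CPM in treated and 75.7 (65.9 to 86.6) in WT cells, in 27 of 37 and 82 of 116 cells, a ratio of 1.39 (1.05 to 1.83). Without the 5 highest cells of each library that ratio was 1.02 (0.691 to 1.48). Ramp2 was lower in treated cells at 0.758 (0.703 to 0.816) but did not reach the size call, and the median gene of this comparison had a log2 ratio of -0.09.

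Apln passed the size call in endothelial cells, where 0.738% of 9217 genes were higher in treated over WT and 0.825% lower, and it was the only one of 6 measured members to do so. It had 83 reads in 9 treated cells and 116 reads in 14 WT cells, or 38.4 (25.04 to 56.2) and 14.9 (10.8 to 20.2) CPM, a ratio of 2.57 (1.51 to 4.29). The reads were carried by few cells: 1 treated cell held 49 of them and 1 WT cell 57. Without the 5 highest cells of each library the ratio was 1.85 (0.288 to 8.40), which no longer passed. Ramp3 had 6 reads in treated and 101 in WT cells, or 2.77 (0.302 to 10.4) and 13.01 (9.14 to 17.97) CPM, and its ratio of 0.213 (0.0224 to 0.857) did not pass because of its width.

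Endothelial cells also carried reads of their wrapping cells and of blood. All 11 mural markers had reads in the treated and WT libraries, at 0.839% and 0.664% of reads, and the 7 red blood cell genes took 2.57% and 2.96%. The 6, 12 and 6 mural cells had no reads of Aplnr, Apln or Ramp2, but a count of 0 there allows up to 97.02, 43.2 and 84.9 CPM. In the treated and WT libraries that limit lies below the endothelial level of Ramp2 but above those of Aplnr and Apln. That class was led by the smooth muscle genes Acta2 and Myh11. In the 5 treated and 20 WT endothelial cells with under 3 mural markers, Ramp2 stood at 2470 and 2262 CPM, a ratio of 1.09 (0.878 to 1.35). Those cells were shallower, with medians of 15302 and 15620 reads against 52575 and 65608 in all endothelial cells of the treated and WT libraries. Without the 5 cells highest in Ramp2 in each library the ratio was 0.675 (0.617 to 0.738). Aplnr in the cells with under 3 mural markers rested on 34 reads in 2 of 5 treated cells and 41 reads in 7 of 20 WT cells. Taking instead every barcode with at least 8 of the 12 endothelial markers gave 40 treated and 130 WT barcodes and ratios of 1.98 for Aplnr, 0.767 for Ramp2 and 2.58 for Apln.

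Ramp1 was the member with the widest spread over glia and immune cells, and it was lower in KO Müller cells. Müller cells held 1032 reads in the treated, 706 in the KO and 1822 in the WT library, or 30.6 (27.3 to 34.1), 17.9 (15.7 to 20.2) and 46.99 (43.5 to 50.7) CPM. The 3 intervals did not overlap: KO was lowest, WT highest and treated between. The ratio was 1.71 (1.44 to 2.03) for treated over KO, 0.650 (0.567 to 0.744) for treated over WT and 0.380 (0.327 to 0.441) for KO over WT, of which only the last passed the size call. Reads were found in 284 treated, 218 KO and 513 WT Müller cells, or 17.4%, 10.5% and 23.3% at even depth. Between clusters the pattern was uneven. In cluster 5 Ramp1 stood at 26.5, 13.5 and 39.7 CPM in treated, KO and WT cells. Cluster 4 holds most KO Müller cells. There the levels were 21.4 (13.2 to 32.7), 19.8 (16.7 to 23.3) and 24.6 (10.6 to 48.6) CPM, with overlapping intervals. They were 39.3, 24.3 and 53.6 CPM in cluster 2 and 24.3, 17.6 and 30.8 CPM in cluster 18. KO was lowest in each of clusters 2, 4, 5 and 18, but its interval lay apart from that of WT in cluster 5 alone. The part of the unequal filling of clusters in the ratio of the whole class was not tested. Astrocytes showed the same order as the whole class, at 87.9 (64.3 to 117) CPM in treated, 32.7 (19.7 to 51.0) in KO and 169.6 (144 to 198) in WT cells. The KO reads came from 3 of 29 astrocytes, and without the 5 highest cells of each library the levels were 27.1, 0 and 95.3 CPM. Microglia, the resident immune cells, stood at 78.8 (34.9 to 153), 130.2 (101 to 166) and 115 (55.5 to 211) CPM, and mural cells at 90.9, 175 and 81.8 CPM, with overlapping intervals in both.

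Calcrl was the other receptor gene found in Müller cells. It had 586 reads in treated, 354 in KO and 506 in WT Müller cells, or 17.4 (14.9 to 20.1), 8.96 (7.45 to 10.7) and 13.1 (11.2 to 15.1) CPM. KO was lowest and its interval overlapped neither of the others, but no ratio passed the size call: 1.94 (1.53 to 2.45) for treated over KO, 1.33 (1.08 to 1.64) for treated over WT and 0.686 (0.542 to 0.867) for KO over WT. Within each of clusters 2, 4, 5 and 18 KO was again lowest, but its interval overlapped that of WT. The KO and treated intervals lay apart in cluster 5 alone. Calcrl and Ramp1, which together make the CGRP receptor, had reads in the same cell in 69 of 1318 treated, 29 of 1388 KO and 94 of 1695 WT Müller cells. At even depth Ramp1 was found in 19.5%, 11.7% and 23.8% of cells with Calcrl and in 17.1%, 10.4% and 23.3% of those without, and the paired shares were close in every library. Adm and Calcrl had reads in the same Müller cell in 25 treated, 77 KO and 10 WT cells, of 92, 620 and 34 cells with Adm. At even depth Calcrl was found in 12%, 5.89% and 15.8% of cells with Adm and in 10.8%, 6.20% and 8.56% of those without. Only 50 treated and 19 WT cells had Adm at that depth. The KO count thus goes with the larger number of KO cells with Adm, where the paired shares were close.

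Ramp2 was low in Müller cells, at 3.55 (2.51 to 4.89) CPM in treated, 4.81 (3.72 to 6.12) in KO and 7.56 (6.19 to 9.14) in WT cells, and no ratio passed the size call. The annotated Ramp2 gene overlaps Vps25, an endosomal sorting gene on the same strand, whose level in Müller cells was 70.7, 76.5 and 75 CPM, and the low Ramp2 values outside endothelial cells are uncertain for that reason. In bipolar cells Ramp2 had 17.2 (14.9 to 19.7), 11.99 (9.88 to 14.4) and 16.5 (14.5 to 18.8) CPM, and Vps25 91.6, 99.8 and 92.9 CPM. Rods had Ramp2 at only 0.887, 0.666 and 2.93 CPM, with Vps25 at 56.5, 58.7 and 54.5 CPM. The part of the overlap in the Ramp2 values was not tested. Astrocytes had Ramp2 at 22.9, 40.4 and 36.0 CPM with overlapping intervals.

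Ramp3 was highest in rods among the classes with at least 50 cells in each library. The gene is overlapped on the other strand by the annotated pseudogene Gm11978, so reads of that pair too cannot be told apart. Rods held it at 90.7 (81.9 to 100.3) CPM in treated, 87.4 (79.2 to 96.3) in KO and 82.9 (67.6 to 101) in WT cells. The intervals overlapped. The ratio was 1.04 (0.9004 to 1.195) for treated over KO, 1.09 (0.878 to 1.37) for treated over WT and 1.05 (0.847 to 1.32) for KO over WT. Rods were far shallower in the treated and KO libraries, at medians of 3043 and 3122 reads per cell against 14324 in WT, and the median gene had log2 ratios of -0.04, 0.41 and 0.44 in these comparisons. Ganglion cells had no Ramp3 reads in 5 treated cells, 51.1 CPM in 29 KO cells and 143 CPM, from 15 reads, in 2 WT cells. The other members had at most 2.93 CPM in rods. In Müller cells Ramp3 stood at 11.8, 12.2 and 10.6 CPM, and its reads lay mostly in clusters 5 and 18, of which cluster 5 met 7 of the rod markers and cluster 18 met 3 rod and 5 cone markers: 17.8 to 28.6 CPM there, against 0.875 to 6.72 in clusters 2 and 4. Without the Müller cells high in photoreceptor markers its ratio was 0.742 (0.416 to 1.29) for treated over KO, 1.96 (0.986 to 3.98) for treated over WT and 2.65 (1.46 to 5.02) for KO over WT, against 0.971, 1.11 and 1.15 with them. None of these ratios met the size call. Within clusters 2 and 4 the Ramp3 intervals of the libraries overlapped, and in cluster 4 KO cells stood at 3.06 CPM and WT cells at 6.72. Cones had 20.5 (14.9 to 27.6), 13 (8.24 to 19.5) and 22.9 (17.9 to 28.9) CPM. Amacrine cells, inhibitory interneurons, had 24.8 (15.5 to 37.8), 18.5 (15.5 to 21.8) and 40.3 (26.9 to 58.0) CPM, a ratio of 0.458 (0.304 to 0.712) for KO over WT that did not pass the size call. No member passed it in rods, cones, bipolar cells or amacrine cells in any comparison. The share of all measured genes that did so in either direction was 2.22% in rods, 1.41% in cones, 2.95% in bipolar and 1.33% in amacrine cells for treated over KO. It was 10.5% in rods, 0.348% in cones and 0.478% in bipolar cells for treated over WT. It was 12.2% in rods, 0.951% in cones, 2.64% in bipolar and 1.42% in amacrine cells for KO over WT. Of the members, Ramp3 was measured in rods and cones, Ramp2 in bipolar cells, and Ramp1 and Ramp3 in amacrine cells. In horizontal cells no member exceeded 1.39 CPM in any library.

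The other listed ligands and receptors of these systems that were in the deposited tables were looked at in the same Müller cells. Apela, the second peptide ligand of APLNR, stood at 6.84 (5.35 to 8.61) CPM in treated, 3.04 (2.19 to 4.11) in KO and 3.25 (2.38 to 4.34) in WT cells. It was higher for treated over KO at 2.25 (1.52 to 3.38), a different order from that of Apln. Outside Müller cells Apela was highest in cones, at 55.8 (46.3 to 66.8), 33.1 (25.2 to 42.7) and 57.7 (49.6 to 66.8) CPM. Calca, which encodes CGRP and calcitonin, stood at 24.2 (21.3 to 27.4), 26.4 (23.8 to 29.3) and 16.3 (14.2 to 18.5) CPM, with no ratio past the size call. Ackr3, a scavenging receptor reported to bind adrenomedullin, was a gene of vessels: 56.4 (39.9 to 77.3) CPM in treated and 104 (92.4 to 117) in WT endothelial cells, a ratio of 0.542 (0.376 to 0.762) that did not pass, and at most 0.567 CPM in Müller cells. Crcp, a CGRP receptor component, was level in Müller cells at 15.1, 17.3 and 16.1 CPM. The calcitonin receptor gene Calcr had no Müller reads, and Gpr182 had 8, 2 and 2.

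The peptide processing list and the G protein list held 1 gene each past the size call in Müller cells, beside 2.63% of all measured genes higher and 2.02% lower for KO over WT, and 1.46% higher and 1.65% lower for treated over KO. With lists of this length, nothing particular to them is read from 1 gene. Of the 10 genes of peptide processing and breakdown, 6 were measured. Pcsk2, a prohormone convertase, was higher for KO over WT at 5.24 and 1.96 CPM, a ratio of 2.67 (1.70 to 4.31), and no other passed in any comparison. Of the 18 genes of the G protein and cyclase branch, 15 were measured, and Rapgef3, a cyclic AMP-gated exchange factor, was the only one past the size call. It stood at 11.99 CPM in treated, 4.58 in KO and 10.3 in WT cells, with a ratio of 2.62 (1.92 to 3.60) for treated over KO and 0.443 (0.324 to 0.599) for KO over WT. None of the 5 genes of receptor regulation (arrestins and receptor kinases) passed. For KO over WT the median log2 ratio was -0.07 for the processing list, -0.06 for the G protein list and 0.12 for receptor regulation, beside -0.01 for all measured genes. Of 12 genes known from endothelial tip cells, 4 were measured in Müller cells, where Cxcr4, a chemokine receptor gene, was higher for treated over KO (8.29 and 2.38 CPM, ratio 3.48, 2.31 to 5.38) and Mcam, an adhesion gene, for treated over WT (15.8 and 7.40 CPM, ratio 2.13, 1.66 to 2.75), beside 1.46% and 0.872% of all measured genes higher in these comparisons. In endothelial cells, where 0.738% of all measured genes were higher for treated over WT, 7 of the tip cell genes were measured, and Igfbp3, a binding protein for insulin-like growth factors, was higher at 291 and 138 CPM (ratio 2.10, 1.76 to 2.50). Of the 15 G protein branch genes measured there, Pde4b, a cyclic AMP phosphodiesterase, was higher at 128 and 49.8 CPM (ratio 2.57, 1.94 to 3.38).

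Genes of like pattern were ranked by the Pearson correlation of log2(CPM + 1) over 28 profiles of a class in a library with at least 10 cells, among 13933 genes. The profiles share libraries, and each correlation is a description. Nearest to Adm were Cgnl1 (r = 0.934), Fam107a (0.926), Arhgef10 (0.920), Aox1 (0.912) and Adgrg6 (0.908). Nearest to Apln were Efna1 (0.870), Rgcc (0.866), Map7d3 (0.862), Snx33 (0.858) and Aox1 (0.857), so Aox1 stood in both lists. Nearest to Aplnr were Myct1 (0.999), Scgb3a1 (0.998), Sox18 (0.997), Gimap5 (0.997) and Sox7 (0.997); Aplnr itself had at most 0.148 CPM outside the 2 endothelial profiles. Among the genes nearest to Calcrl were Mfsd2a (0.903), Sh3tc1 (0.888), Trim16 (0.883) and Reck (0.858).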

How the data were processed

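The data are 10x Chromium 3′ libraries, per the labels. The submitters' processing notes name Partek 9.0 and the build mm10 but give neither a role. The authors deposited estimated counts per gene and cell barcode, per the values themselves, of which 2.34%, 2.33% and 2.39% of the nonzero ones in the treated, KO and WT libraries were not whole (tolerance 0.001). They were rounded to whole numbers. In genes found in few barcodes, only 48.3%, 53.3% and 54.8% of nonzero values up to 10 were 1, so values were treated as reads and divided by 3.20, 2.87 and 2.77 for every interval and minimum. No source used here says whether the authors collapsed reads by molecular identifier.

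Kept barcodes had at least 500 genes and at most 20% of reads from mitochondrial genes, leaving 8917, 10239 and 6081. Doublets were scored by the share of simulated doublets among neighbours, and the highest 7.13%, 8.19% and 4.87% were removed. The rest were scaled to 10000 reads and clustered with leidenalg 0.10.2 (2000 variable genes without the 7 members, 40 principal components, 15 neighbours, resolution 1, 34 clusters). A cluster took the name of a type when 3 or more of its markers exceeded their level elsewhere by 2-fold and had reads in 20% of the cells. Of the kept cells, 7994, 8919 and 5653 were in named classes.

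CPM intervals are exact Poisson, shares exact Clopper-Pearson, and ratios exact conditional binomial. No fit or test between groups was made. Ratios needed 50 cells of a class in each library, except in endothelial cells for treated over WT. Even-depth shares thin each cell to 10000 reads and leave out shallower cells. Software was Python 3.11.15, numpy 2.4.6, scipy 1.17.1 and scikit-learn 1.9.0. The members, lists, markers and naming rule were chosen with earlier results of these data known. Named genes are the 7 members, listed pathway genes past the size call in Müller or endothelial cells, the other measured ligands and receptors, and the 5 genes nearest in pattern to Adm, Apln, Aplnr and Calcrl, of which 1 is not reported here. Endothelial pathway genes fall outside the rule as first written and were added after their values were seen. Adm2, Calcb, Iapp and Kcne3, which were on the lists, were absent by name from the deposited tables and could not be measured.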

Additional observations from a re-analysis of the deposited data

How the results depend on the processing

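No paired analysis was possible because each group has 1 library. The 6 Adm and Apln ratios in Müller cells and the 3 counts of genes past the size call were recomputed under 10 alternatives each (the ratios without the 5 highest cells, the counts with a minimum of 10 molecule equivalents, and 9 in common), and 87 of the 90 resulting values stayed within the interval of the value reported (or within 1.5 times the count). The Adm ratio for KO over WT was 91.5 without cells high in photoreceptor markers and 87.1 without the 5 highest cells. The count for treated over WT was 348 when CPM was averaged over cells, against 161. Taking Müller clusters 1 at a time was chosen after the data were seen, as were the settings for astrocytes and endothelial cells without the 5 highest cells. Adm for treated over KO was 0.0807 in cluster 2, 0.125 in cluster 4, 0.184 in cluster 5, 0.229 in cluster 18 and 1.02 in cluster 25, the last on 2 and 1 reads. Adm for treated over WT was 9.84 (1.26 to 1374) in cluster 4, where WT cells held 2 reads. For KO over WT it was 25.1 (14.9 to 45.8) in cluster 5 and 36.7 (11.3 to 219) in cluster 18, where WT cells held 7 reads. Apln for treated over KO was 0.131 (0.0831 to 0.197) in cluster 18. For treated over WT it was 0.486 (0.156 to 1.64) in cluster 4 and 1.36 (0.758 to 2.47) in cluster 5. For KO over WT it was 7.33 (3.39 to 19.7) in cluster 4, 14.3 (9.47 to 22.7) in cluster 5 and 6.64 (4.14 to 11.3) in cluster 18. Outside cluster 25, KO was highest for both genes in each cluster. In endothelial cells with under 3 mural markers, also a later choice, the Ramp2 ratio for treated over WT was 1.09, against 0.675 without the 5 highest cells and 0.758 in all. In Müller cells without those high in photoreceptor markers the Ramp3 ratio for KO over WT was 2.65 (1.46 to 5.02), short of the size call, against 1.15 with them. The cause of these shifts was not tested. The 2 KO endothelial cells and the astrocyte numbers limit what can be said of receptor levels there.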

Other observations

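Bipolar cells, the interneurons that relay photoreceptor signals, had reads of the calcitonin receptor gene Calcr, which had no reads in Müller cells. The gene was not limited to bipolar cells. Amacrine cells had 0 CPM in treated, 0.141 in KO and 2.55 in WT, with too few reads for the size call. In bipolar cells Calcr stood at 0.858 (0.417 to 1.56) CPM in treated, 3.75 (2.61 to 5.21) in KO and 1.65 (1.05 to 2.47) in WT cells. Its ratio there for treated over KO was 0.229 (0.102 to 0.468), past the size call that 2.03% of 13632 genes passed in that direction, and 2.27 (1.31 to 4.00) for KO over WT did not pass. Reads were found in 19 of 2282, 39 of 1794 and 20 of 2714 bipolar cells. The bipolar clusters were filled unequally, with 14 treated, 161 KO and 28 WT cells in cluster 24, and the part of this in the ratio was not tested. Calcr was looked at here after its values were seen.

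Apela was lower in KO than in WT cells of 2 neuron classes, with ratios of 0.574 (0.419 to 0.774) in cones and 0.582 (0.412 to 0.812) in bipolar cells, neither past the size call. Treated over WT was 0.968 (0.761 to 1.23) in cones and 0.932 (0.712 to 1.22) in bipolar cells.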
